A study of Mus musculus with 12 samples.

Results

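The genes described here are 10 genes of the intestinal stem cell and of the Wnt pathway, *Lgr5*, *Ascl2*, *Smoc2*, *Lrig1*, *Axin2*, *Rnf43*, *Znrf3*, *Notum*, *Sox9* and *Myc*, chosen by their names in the count table, where they are 10 of 54532 genes. RNA-Seq covered colonic tissue of male wild-type C57BL/6J mice, 5 weeks old, in 4 groups of 3 libraries. Dextran sodium sulfate (DSS), a sulfated polysaccharide that damages the lining of the colon, was given to the model group and withheld from the control group. The Rhy group received DSS with rhynchophylline (Rhy), an alkaloid of *Uncaria rhynchophylla*, and the DXM group received DSS with the glucocorticoid dexamethasone (DXM, 4 mg/kg). The acute colitis experiment used 3% DSS in the drinking water and Rhy at 2, 4 or 8 mg/kg. The dose of the sequenced Rhy mice is not given in the sources used here, and neither is the part of the colon that was taken. The study asked how Rhy acts on the injured intestinal barrier, and the comparisons below ask whether the genes of the renewing crypt differed with DSS, and with either drug given on top of DSS.

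The colonic epithelium is renewed from stem cells at the base of the crypts, which are kept in that state by Wnt ligands and R-spondins from the cells around them. Wnt binding to Frizzled receptors stabilises beta-catenin, which enters the nucleus and switches on target genes with TCF/LEF factors. Several of these targets act back on the pathway as brakes, and in DSS colitis the stem cell compartment is lost in injured crypts and rebuilt during repair.

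The promoters of *Ascl2* and *Axin2* are printed because the levels of these Wnt targets were correlated across the libraries, as described below. RefSeq promoter windows on GRCm38.p6 were found for 4 of the 10 genes (*Ascl2*, *Axin2*, *Lrig1* and *Rnf43*, the last with 2 start sites). Each sequence below is the 250 bases before the start site, 5′ to 3′ on the strand of the gene, and capitals mark an E-box, the motif of basic helix-loop-helix factors. *Ascl2* lies on the minus strand (chr7:142969265-142969514) and *Axin2* on the plus strand (chr11:108920099-108920348).
Ascl2: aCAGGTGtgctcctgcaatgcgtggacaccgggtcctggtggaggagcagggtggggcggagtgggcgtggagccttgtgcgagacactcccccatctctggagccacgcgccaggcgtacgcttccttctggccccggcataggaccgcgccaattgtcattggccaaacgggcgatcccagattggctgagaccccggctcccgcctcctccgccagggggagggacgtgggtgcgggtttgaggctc
Axin2: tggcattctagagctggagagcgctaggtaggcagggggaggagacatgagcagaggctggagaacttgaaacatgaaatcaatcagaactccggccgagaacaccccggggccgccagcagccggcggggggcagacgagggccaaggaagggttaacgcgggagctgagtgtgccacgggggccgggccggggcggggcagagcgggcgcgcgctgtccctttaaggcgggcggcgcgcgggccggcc
The letters of the TCF/LEF core, CTTTGA and its reverse complement TCAAAG, occurred in none of the 5 windows of the 4 genes, beside 13.8% of the 32851 windows of the same length in the table. The E-box was searched as CAGCTG, and as CACCTG or its reverse complement, and no match overlapped a match of TCF/LEF. An E-box was found once, as CAGGTG in the *Ascl2* window, starting 249 bases before the start site, and 27.7% of all windows held at least 1. GC content was 67.6% in the *Ascl2* window and 69.2% in the *Axin2* window.

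The libraries held 14346478 to 17749716 counted reads each, and 16904 genes passed the filter on low counts, 9 of the 10 genes among them. *Notum* did not pass. All 10 epithelial markers, such as *Epcam* and *Cdh1*, were detected in all libraries (18320 to 29778 CPM in sum), so that the tissue matched its label. Counts scaled to library size on the TMM scale (CPM) are given for comparisons of 1 gene between libraries. Model 1 and model 2 were near copies of each other in their counts, with a common dispersion (variance beyond counting noise) of 0.00201 against 0.0606 to 0.353 in the other 65 pairs. *Hoxb13*, a homeobox gene of the distal colon, was at 0.165 CPM in control 3, 1.49 CPM in model 3 and 0 CPM in Rhy 1, and at 72.0 to 316 CPM in the other libraries. Mitochondrial genes took 6.33% to 25.7% of the reads, with the highest shares in DXM 1, Rhy 1, control 1 and control 2. These 4 libraries also had the lowest shares of reads on the 10 genes, 0.00841% to 0.0157% against 0.0218% to 0.0315% in the other libraries. The part of tissue position and RNA quality in the results below was not tested, except where values without the libraries low in *Hoxb13* or with *Hoxb13* as a covariate are given. The labels do not say whether the libraries of a group came from separate mice, so p-values measure the spread between these libraries.

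Compared per gene length (FPKM), the genes fell into a wide range of levels. *Lrig1* had the highest median over the 12 libraries at 12.0 FPKM, followed by *Myc* at 10.4 FPKM and *Sox9* at 10.1 FPKM. *Ascl2* (5.04 FPKM), *Rnf43* (3.52 FPKM), *Smoc2* (2.81 FPKM) and *Axin2* (2.44 FPKM) lay in the middle, and *Znrf3* was at 1.10 FPKM. *Lgr5*, the marker most used for crypt base stem cells, was at only 0.337 FPKM, and *Notum* at 0.0605 FPKM. Among the genes with a count in any library, *Lrig1* stood at percentile 87.6 of median FPKM and *Lgr5* at percentile 48.5.

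**Figure D1:**
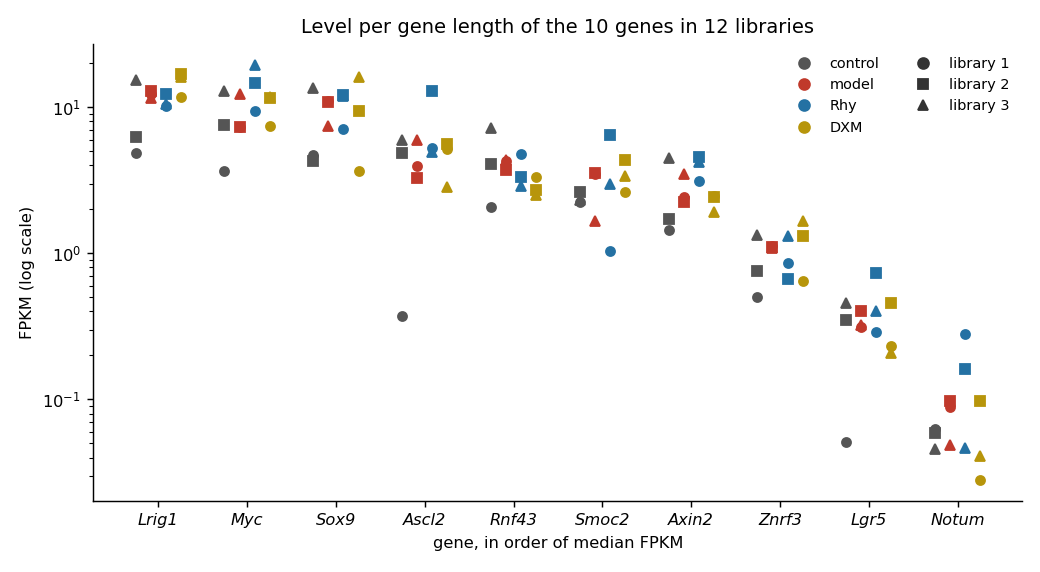
FPKM on a log scale of the 10 genes in the 12 libraries, in order of the median, with colours for groups and symbols for the library number. The medians run from 12.0 FPKM for *Lrig1* to 0.0605 FPKM for *Notum*, and control 1 lies far below the other libraries for *Ascl2* and *Lgr5*.

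*Lgr5* (ENSMUSG00000020140, chr10:115450311-115587780, minus strand) encodes a receptor for R-spondins on crypt base stem cells. It was at 0.524, 3.55 and 4.61 CPM in control 1 to 3, at 3.31, 4.25 and 3.40 CPM in model 1 to 3, at 3, 7.64 and 4.13 CPM in Rhy 1 to 3, and at 2.40, 4.82 and 2.18 CPM in DXM 1 to 3. Control 1 was the lowest library, with 7 reads, and Rhy 2 the highest, with 117 reads, while all 4 groups overlapped. The log2 fold change was 0.32 ± 0.62 (SE) in model against control, 0.43 ± 0.62 in Rhy against model and -0.22 ± 0.62 in DXM against model. It was -0.16 in model against control without control 1, and -0.030 in Rhy against model without Rhy 2. The 95% interval of the difference between model and control was -1.03 to 1.68 on the log2 scale. In whole tissue, a change in the number of stem cells and a change in RNA per stem cell cannot be told apart.

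*Ascl2* (ENSMUSG00000009248, chr7:142966829-142969264, minus strand) encodes a basic helix-loop-helix factor that maintains the stem cell state. It was at 0.599, 7.72 and 9.50 CPM in the control libraries, 6.62, 5.46 and 9.83 CPM with DSS alone (model), 8.56, 21.1 and 8.03 CPM in the Rhy libraries, and 8.50, 9.21 and 4.71 CPM in the DXM libraries. Its extremes were the same as those of *Lgr5*, with control 1 at 8 reads and Rhy 2 at 323 reads. The Rhy group had the highest mean, 12.6 ± 7.39 CPM (SD, n = 3), against 7.30 ± 2.26 CPM with DSS alone (model), and the log2 fold change was 0.78 ± 0.69 (SE, adjusted p = 1 with edgeR). Without Rhy 2 this difference was 0.18 on the log2 scale.

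*Smoc2* (ENSMUSG00000023886, chr17:14279506-14404790, plus strand) encodes a secreted matrix protein that marks crypt base cells and is also made by stromal cells. It was even in the control group, at 15.4, 18.0 and 16.0 CPM, and at 24.9, 25.3 and 11.7 CPM in the model group. The Rhy libraries were spread most widely, at 7.28, 45.3 and 20.8 CPM, and the DXM libraries were at 18.7, 30.9 and 24.1 CPM. Rhy 1 was the lowest of all 12 libraries and Rhy 2 the highest, so that the groups overlapped in each comparison. The fibroblast marker sum, from 8 genes, was lowest in Rhy 1 at 393 CPM. It was 1108 CPM in Rhy 2, 1682 CPM in Rhy 3, 1363 CPM in DXM 1 and 1924 CPM in DXM 3. The part of fibroblasts in the level of *Smoc2* was not tested.

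*Lrig1* (ENSMUSG00000030029, chr6:94604529-94700158, minus strand) encodes a membrane protein that damps ErbB receptors and marks stem and progenitor cells of the crypt. It was at 27.0, 34.5 and 84.9 CPM in the control libraries, 70.6, 74.0 and 66.0 CPM with DSS alone (model), 57.6, 69.2 and 58.7 CPM in the Rhy libraries, and 66.9, 96.9 and 91.8 CPM in the DXM libraries. Control 1 and control 2 lay below all 9 libraries of mice given DSS, while control 3 lay above the model group. The log2 fold change in model against control was 0.52 ± 0.35 (SE, 95% interval -0.23 to 1.28, adjusted p = 0.647 with edgeR), the smallest p of the 9 genes in this comparison. A stretch of 144 bases, 2.58% of its exon length, overlaps *Slc25a26* on the other strand, and without a stated strand setting these reads cannot be told apart.

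*Axin2* (ENSMUSG00000000142, chr11:108920349-108950783, plus strand) encodes a scaffold of the complex that degrades beta-catenin and is a direct target of Wnt signalling in most tissues. It was at 7.94, 9.25 and 24.5 CPM in the control libraries, 13.8, 12.7 and 19.5 CPM with DSS alone (model), 17.5, 25.3 and 23.2 CPM in the Rhy libraries, and 13.7, 13.6 and 10.8 CPM in the DXM libraries. The Rhy group had the highest mean at 22.0 ± 4.07 CPM (SD, n = 3) and the DXM group the lowest at 12.7 ± 1.67 CPM, with the model group at 15.4 ± 3.66 CPM. Only Rhy 1 lay within the range of the model libraries, and the log2 fold change in Rhy against model was 0.52 ± 0.38 (SE, 95% interval -0.30 to 1.34, adjusted p = 1 with edgeR). A stretch of 209 bases, 3.8% of its exon length, overlaps the antisense gene *Gm11670*.

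*Rnf43* (ENSMUSG00000034177, chr11:87662722-87735539, plus strand) and *Znrf3* (ENSMUSG00000041961, chr11:5276324-5444847, minus strand) encode related membrane ubiquitin ligases that remove Frizzled receptors from the cell surface, a brake that R-spondins release. *Rnf43* was at 13.6, 26.6 and 46.5 CPM in the control libraries, 29.0, 25.1 and 29.4 CPM with DSS alone (model), 31.6, 22.1 and 19.0 CPM in the Rhy libraries, and 22.3, 18.1 and 16.9 CPM in the DXM libraries. All DXM libraries were below all model libraries. The log2 fold change was -0.54 ± 0.36 (SE, 95% interval -1.32 to 0.23), with an adjusted p of 0.706 in edgeR and an exact two-sided permutation p of 0.1, the smallest that 3 libraries against 3 can give. Since model 1 and model 2 were near copies, this permutation p and the lack of overlap rest on fewer than 3 separate model libraries. *Znrf3* was at 3.97, 5.84 and 10.5 CPM in the control libraries, 9.21, 9.04 and 8.76 CPM with DSS alone (model), 6.85, 5.29 and 10.4 CPM in the Rhy libraries, and 5.14, 10.7 and 13.6 CPM in the DXM libraries. It did not share the low DXM levels of *Rnf43*: its mean in that group was the highest, 9.79 ± 4.28 CPM (SD, n = 3). The *Rnf43* to *Znrf3* ratio in FPKM was 4.13, 5.47 and 5.34 in the control libraries, 3.78, 3.34 and 4.04 in the model libraries, 5.55, 5.04 and 2.21 in the Rhy libraries, and 5.22, 2.04 and 1.5 in the DXM libraries. Rhy 3, DXM 2 and DXM 3 thus had the lowest ratios, below all control and model libraries.

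*Notum* (ENSMUSG00000042988, chr11:120653788-120661175, minus strand), whose product strips the lipid from Wnt ligands, was close to undetected. It had 2 reads in each control library, 4, 4 and 2 in the model libraries, 8, 6 and 2 in the Rhy libraries, and 1, 5 and 2 in the DXM libraries. A difference was not detectable at this depth, and 29.4% of its exon length overlaps the antisense gene *Notumos* and 8.72% overlaps the antisense gene *Myadml2os*, whose reads cannot be told apart from those of *Notum* here.

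*Sox9* (ENSMUSG00000000567, chr11:112782224-112787760, plus strand) encodes a transcription factor of the crypt base and of transit-amplifying progenitors. It was at 19.5, 17.4 and 55.3 CPM in the control libraries, 47.0, 45.9 and 31.5 CPM with DSS alone (model), 29.7, 50.5 and 49.6 CPM in the Rhy libraries, and 15.4, 39.7 and 68.2 CPM in the DXM libraries. The DXM group held both the lowest and the highest of the 12 libraries. *Myc* (ENSMUSG00000022346, chr15:61985391-61990374, plus strand), the growth-promoting factor through which Wnt drives crypt proliferation, was at 9.96, 20.2 and 34.7 CPM in the control libraries, 20.6, 20.6 and 34.2 CPM with DSS alone (model), 25.7, 40.2 and 53.3 CPM in the Rhy libraries, and 20.4, 32.0 and 32.7 CPM in the DXM libraries. Rhy 2 and Rhy 3 were above the other 10 libraries. The log2 fold change of *Myc* in Rhy against model was 0.66 ± 0.41 (SE, 95% interval -0.24 to 1.57, adjusted p = 1 with edgeR), the smallest p of the 9 genes in that comparison.

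**Figure D2:**
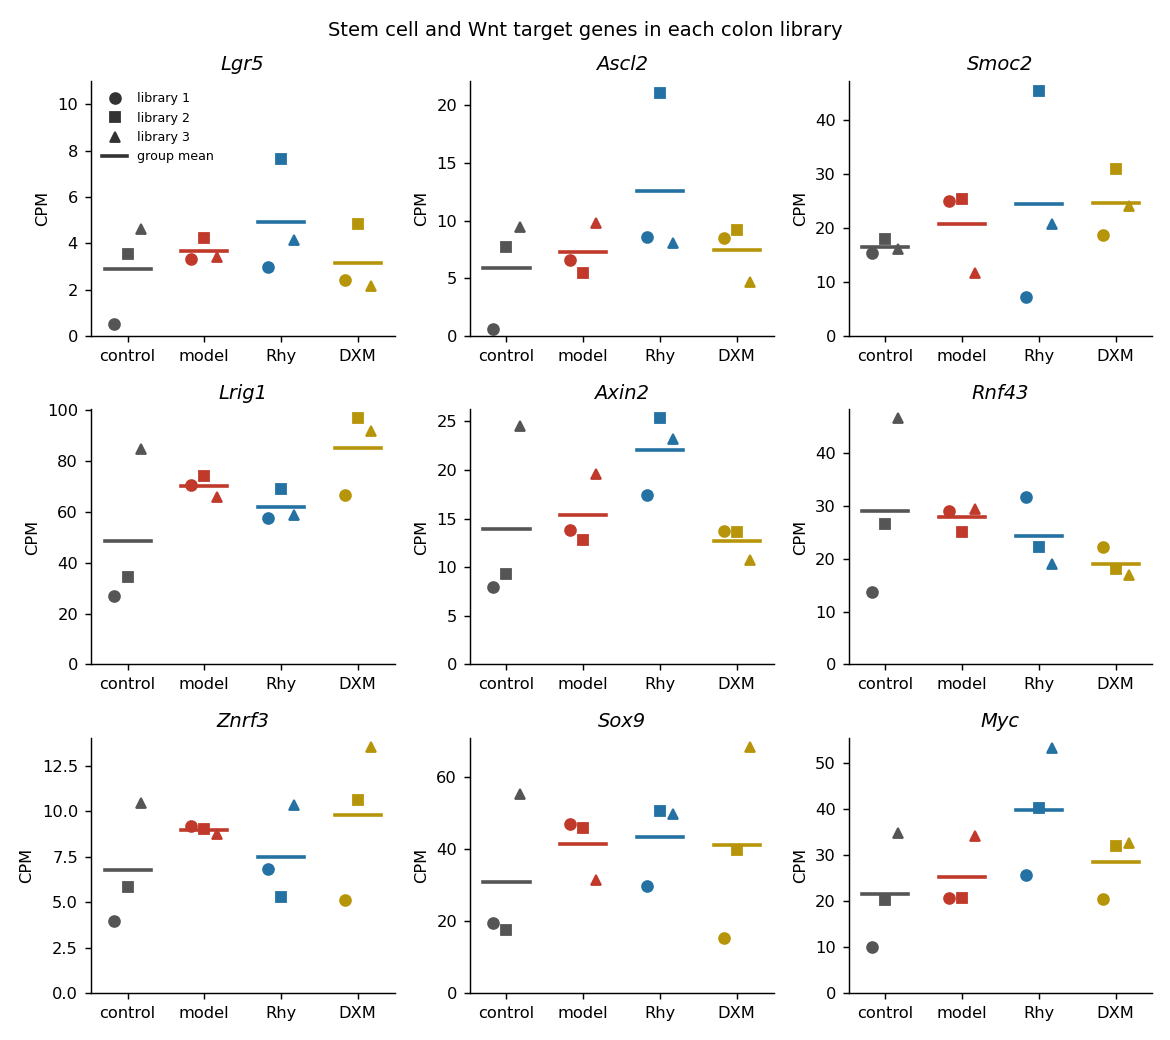
CPM on the TMM scale of 9 genes in each library, by group, with a symbol for the library number and a bar for the group mean (n = 3). Control 1 was the lowest library for 7 of the 9 genes, and control 3 was above all model libraries for 7 of the 9. The same counts over all tested genes are not given here.

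In the order of the group means, all 30 pairs of neighbouring groups overlapped in their libraries, 3 pairs for each of the 10 genes. The control group was the lowest by mean for 7 of the 9 tested genes, and it was also the least uniform. The highest control library was 3.18 times the lowest in the median over the 9 genes (1.17 to 15.9 times), against 1.5 times in the model group, 1.96 times in the Rhy group and 1.66 times in the DXM group. The model value includes the near copies model 1 and model 2, so it is not a spread of 3 separate libraries. Control 1 lay among the 3 lowest libraries for 9 of the 9 genes, and control 3 among the 3 highest for 8 of the 9. Such counts and ratios are not given here for all tested genes. Whether they are particular to the 9 genes was not tested.

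Between model and control, the adjusted p of edgeR was under 0.05 for 0 of the 9 genes, beside 0% of the 16904 genes tested. At an unadjusted p under 0.05 the count was also 0 of 9, with edgeR and with DESeq2, beside 9.62% of all genes with edgeR. The libraries of model and control did not overlap for 0 of the 9 genes, beside 17% of all genes. The log2 fold change was above 0 for 8 of the 9 genes, from -0.06 for *Rnf43* to 0.52 for *Lrig1*, with a median of 0.32 beside 0.01 over all genes tested. This median was -0.13 without control 1 and 0.80 without control 3. Cell type markers moved with the groups: 4 of the 10 cycling cell markers (*Cdk1*, *Birc5*, *Aurkb* and *Bub1*) were higher in the model group at an unadjusted p under 0.05 (sum 356 to 494 CPM against 188 to 335 CPM), and 5 of the 8 surface colonocyte markers (*Krt20*, *Slc26a3*, *Aqp8*, *Muc3* and *Guca2a*) were lower (sum 11427 to 19535 CPM against 17166 to 33441 CPM). Their part in the levels of the 9 genes was not tested.

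In Rhy against model, the adjusted p of edgeR was under 0.05 for 0 of the 9 genes, beside 0% of all genes. At an unadjusted p under 0.05 the count was 0 of 9 with edgeR and with DESeq2, beside 3.72% of all genes with edgeR, and the libraries did not overlap for 0 of the 9 genes, beside 11.5%. The median log2 fold change was 0.25, beside -0.01 over all genes, from -0.26 for *Znrf3* to 0.78 for *Ascl2*. This median was -0.062 without Rhy 2, -0.0063 without model 3 and 0.66 without Rhy 1. *Ascl2*, *Myc*, *Axin2* and *Lgr5* had the highest values, while *Lrig1*, *Rnf43* and *Znrf3* were below 0. Of the 8 fibroblast markers, 3 (*Col3a1*, *Dcn* and *Lum*) were higher in the Rhy group at an unadjusted p under 0.05, with a median log2 fold change of 0.73 over the 8 and a sum of 393 to 1682 CPM. The smooth muscle sum was 6338 to 7053 CPM in the Rhy group and 4125 to 5276 CPM in the model group, and the log2 fold changes of the 10 cycling cell markers were all below 0 (median -0.57) with none at an unadjusted p under 0.05. The part of these markers in the levels of the 9 genes was not tested.

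In DXM against model, the adjusted p of edgeR was under 0.05 for 0 of the 9 genes, beside 0% of all genes, and 0 of 9 had an unadjusted p under 0.05 with edgeR and with DESeq2, beside 7.69%. Of the 9 genes, 1 did not overlap, *Rnf43*, beside 22.6% of all genes. The median was 0.03, beside -0.01 over all genes. In this comparison 7 of the 8 fibroblast markers (sum 914 to 1924 CPM against 523 to 578 CPM) and 6 of the 10 smooth muscle markers were higher in the DXM group at an unadjusted p under 0.05, and their part in the levels of the 9 genes was not tested.

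**Figure D3:**
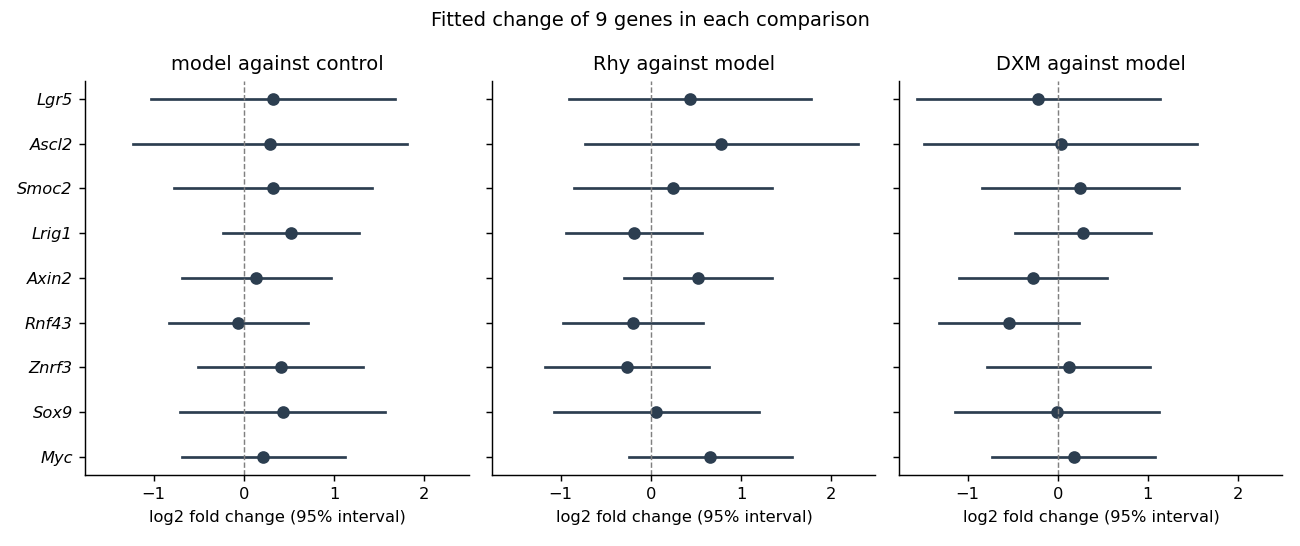
Log2 fold change of 9 genes in each comparison from edgeR's fit of all 12 libraries, with 95% intervals as lines. All intervals include 0, and that of *Rnf43* in DXM against model runs from -1.32 to 0.23.

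Several values changed when the libraries low in *Hoxb13* were left out, an alternative chosen after the data were seen that leaves control 1 and 2, model 1 and 2, Rhy 2 and 3 and the DXM group. The model libraries were then above the control libraries in *Lrig1* by 1.19 (adjusted p = 0.167 with edgeR), in *Sox9* by 1.30 (adjusted p = 0.291) and in *Axin2* by 0.59 (adjusted p = 0.279) on the log2 scale. These 3 of the 9 genes had an unadjusted p under 0.05, beside 15.6% of all genes. Control 1 and control 2, the controls left in this contrast, had 21.0% and 17% mitochondrial reads and the lowest shares of reads on the 10 genes, against 13.4% and 14.0% mitochondrial reads in model 1 and model 2, and the part of RNA quality in it was not tested. Since model 1 and model 2 were near copies, the fit was repeated with their counts summed into 1 library. This leaves 1 library in the model group, which is assumed to vary like the libraries of the other groups, so that these values have no replicate check in the model group. Then 1 of the 9 genes, *Lrig1*, had an unadjusted p under 0.05 (difference 1.20, adjusted p = 0.841), beside 5.52% of all genes. In Rhy against model, *Axin2* was higher by 0.90 (adjusted p = 0.482) and *Myc* by 1.21 (adjusted p = 0.525). Both had an unadjusted p under 0.05, beside 8.42% of all genes. With the summed model library, on the same assumption for the lone library, the unadjusted p of both was under 0.05, beside 2.61% of all genes, and the adjusted p of both was 1. None of these values had an adjusted p under 0.05. With all 12 libraries and *Hoxb13* as a covariate, 0 of the 9 genes had an unadjusted p under 0.05 in any comparison.

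**Figure D4:**
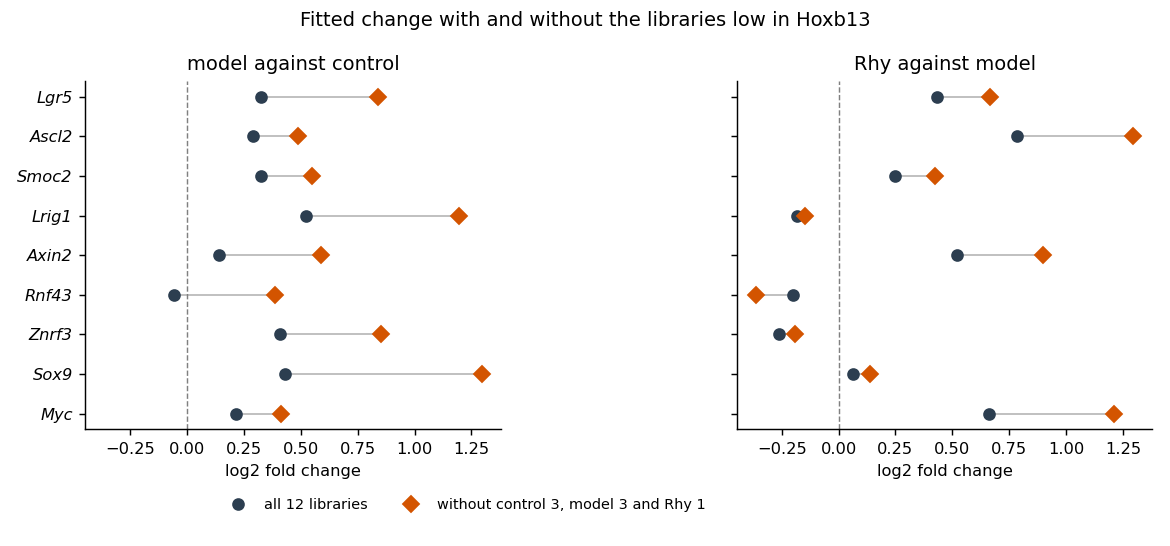
Log2 fold change of 9 genes in model against control and in Rhy against model, with all 12 libraries (circles) and without control 3, model 3 and Rhy 1 (diamonds). In model against control all 9 values shift to the right, *Lrig1* from 0.52 to 1.19 and *Sox9* from 0.43 to 1.30.

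Pairs of the genes were compared across libraries. With model 1 and model 2 averaged to 1 sample, Pearson's r of log2 CPM was above 0 for 35 of the 36 pairs of the 9 genes over 11 samples, and for 25 of the 36 without control 1. After Benjamini-Hochberg adjustment over the 36 pairs, 7 pairs had a permutation p under 0.05 by r and 2 of these also by Spearman's rho. The first was *Axin2* with *Myc*, with r = 0.80 (permutation p = 0.0017, adjusted p = 0.0204) and rho = 0.84 (permutation p = 0.002, adjusted p = 0.043). It was 0.80 without Rhy 2 and control 3, the samples farthest from the median of *Axin2*, 0.82 over the 8 samples with *Hoxb13* above 5 CPM, and 0.77 within groups. The second was *Ascl2* with *Axin2*, with r = 0.73 (permutation p = 0.00109, adjusted p = 0.0196) and rho = 0.84 (permutation p = 0.00239, adjusted p = 0.043). Its r was 0.57 without control 1 and Rhy 2, so that it rested in part on these samples. *Lgr5* with *Ascl2* had the highest r, 0.95 (permutation p = 0.00065, adjusted p = 0.0196), but rho was 0.65 and r fell to 0.53 without control 1 and Rhy 2, so that it rested on these samples. *Rnf43* and *Znrf3*, the related ligases, had r = 0.20. All samples share 1 scaling to library size, and the share of mitochondrial reads moved with the level of the genes as given above. Such counts of pairs were not made for all tested genes, so whether they are particular to the 9 genes was not tested.

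**Figure D5:**
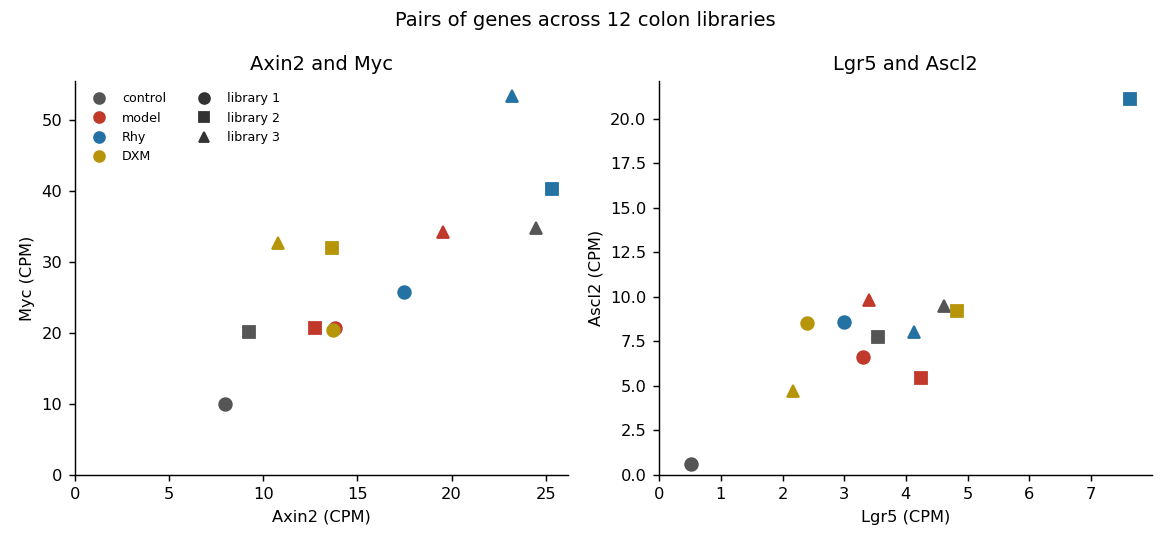
CPM of *Myc* against *Axin2* and of *Ascl2* against *Lgr5* in the 12 libraries, with colours for groups and symbols for the library number. The first pair spreads along the whole range (r = 0.80 over 11 samples), while the second rests on control 1 at the bottom and Rhy 2 at the top.

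The tested genes other than the 10 were also ranked by Pearson's r of log2 CPM over all 12 libraries. Those most like *Lgr5* were *Ppp2cb* (r = 0.96), *Xylb* (r = 0.95) and *Wee1* (r = 0.94). Those most like *Axin2* were *Ybx1-ps2* (r = 0.89), *Smc1a* (r = 0.84) and *Srp54c* (r = 0.84). *Ybx1-ps2* was at only 0.30 to 1.31 CPM. All these r values were picked as the highest among the tested genes, with model 1 and model 2 counted separately. Values without control 1 and Rhy 2 were not computed. No gene of the other lists used here was among the 6 named.

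Around the 10 genes, the other genes of the pathway were counted by lists. The shares of all genes at an unadjusted p under 0.05, against which the list counts stand, were 9.62% in model against control, 3.72% in Rhy against model and 7.69% in DXM against model. Of 13 tested Wnt ligands and R-spondins (25 listed), 1 was higher and 0 were lower in model against control at an unadjusted p under 0.05, 1 was higher and 1 was lower in Rhy against model, and 2 were higher and 0 were lower in DXM against model. *Wnt2b*, a ligand made by stromal cells, was at 1.49, 0.910 and 0.834 CPM with DSS alone (model), 1.54, 3.59 and 2.94 CPM with Rhy, and 6.31, 2.31 and 5.27 CPM with DXM. All libraries of both drug groups were above the model libraries, by 1.32 ± 0.48 (SE, adjusted p = 1 with edgeR) and by 2.09 ± 0.48 (adjusted p = 0.622) on the log2 scale. These comparisons share the model libraries, and the fibroblast markers given above were higher in both, 3 of 8 with Rhy and 7 of 8 with DXM. Their part in the level of *Wnt2b* was not tested. *Rspo3*, the stromal R-spondin, was at 3.81, 3.46 and 2.03 CPM with DSS alone and at 9.53, 4.43 and 11.1 CPM with DXM, a difference of 1.43 ± 0.49 (adjusted p = 0.622). *Wnt6* was at 0.374, 0.974 and 0.988 CPM in the control libraries, 1.88, 2.24 and 1.73 CPM with DSS alone and 0.171, 1.24 and 0.792 CPM with Rhy, without overlap between model and either of the others.

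Of 22 tested Wnt receptors and destruction complex genes (24 listed), 0 were higher and 1 was lower in model against control (*Gsk3b*, log2 fold change -0.35), 1 was higher and 0 were lower in Rhy against model (*Fzd7*, 0.54), and 2 were higher (*Fzd1*, 0.90, and *Fzd2*, 0.59) and 1 was lower (*Fzd3*, -1.35) in DXM against model, beside 9.62%, 3.72% and 7.69% of all genes. In DXM against model, all DXM libraries lay below all model libraries for 11 of the 22 genes and above them for 3. Over all genes, 22.6% did not overlap in that comparison. The median log2 fold change of the 22 genes there was -0.20, with 9 above 0 and 13 below. The near copies model 1 and model 2 limit these counts too. Of 13 nuclear Wnt factors, all tested, 1 was lower in model against control, *Tcf7l2*, the main TCF of the intestine, with a log2 fold change of -0.72 ± 0.31 (adjusted p = 0.511), with the libraries overlapping, and none passed in the other comparisons. Of 17 tested other Wnt targets and antagonists (20 listed), 1 was higher in model against control (*Sfrp4*, a secreted Wnt antagonist, 2.38 ± 1.03, from 0 to 0.384 CPM in the control group to 0.607 to 1.38 CPM in the model group), none passed in Rhy against model, and 4 were higher and 1 was lower in DXM against model. Among these 4, *Sfrp1* was at 15.4, 13.0 and 11.4 CPM with DSS alone and 29.8, 20.7 and 32.4 CPM with DXM (1.05 ± 0.28, adjusted p = 0.622), *Dkk3* was higher by 0.91 ± 0.35, and *Nkd1*, an intracellular brake, by 0.89 ± 0.30 with overlapping libraries. The fourth was *Sfrp4* (2.19 ± 0.87) and the lower gene was *Kremen2* (-0.71 ± 0.32), both named after their values were seen.

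Of 12 tested other genes of crypt base and reserve stem cells (13 listed), 1 was higher and 1 was lower in model against control, and none passed in the other comparisons, beside the same 9.62%, 3.72% and 7.69% of all genes. *Cdca7* was at 14.6, 24.6 and 43.1 CPM in the control libraries and 45.4, 44.2 and 60.2 CPM in the model libraries (0.86 ± 0.34, adjusted p = 0.488). *Prom1* was at 415, 849 and 450 CPM in the control libraries and 205, 202 and 303 CPM in the model libraries (-1.27 ± 0.50, adjusted p = 0.488). Of 14 tested genes of the regenerating epithelium (15 listed), 1 was lower in model against control, none passed in Rhy against model and 4 were higher in DXM against model. *Ccn1*, a target of the YAP pathway that is active in repair, was at 42.6, 10.8 and 23.5 CPM in the control libraries, 6.89, 6.80 and 9.77 CPM with DSS alone and 22.9, 28.0 and 89.3 CPM with DXM. It did not overlap in either comparison (-1.71 ± 0.59, adjusted p = 0.479, and 2.58 ± 0.60, adjusted p = 0.622). *Ccn2* (1.70 ± 0.59) and *Wwtr1*, which encodes the YAP-related protein TAZ (0.92 ± 0.30), were also higher with DXM, as was *Ereg*, a growth factor gene (1.62 ± 0.66), named after its values were seen. Fibroblasts express several of these genes, and the fibroblast and smooth muscle markers moved in the same direction with DXM, as given above. The part of these markers in the levels of *Ccn1*, *Ccn2*, *Wwtr1* and *Ereg* was not tested. Of the 14 tested genes of the regenerating epithelium, 11 had a log2 fold change above 0 in DXM against model and 3 below 0. Those below were *Ly6a* (-0.69), *Clu* (-0.23) and *Msln* (-0.10), none at an unadjusted p under 0.05 with edgeR. No gene of these lists had an adjusted p under 0.05.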

How the data were processed

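The authors deposited read counts per gene for the 12 libraries (raw, not normalized) and FPKM values made from the same counts. Per the submitters' processing notes, HISAT2 2.0.5, featureCounts 1.5.0-p3, DESeq2 1.16.1 and the mm10 build were used. The strand setting is not given in the sources used here. The deposited FPKM values were recovered from the counts with gene length and DESeq2 size factors for 100% of 262985 values above 0, within 0.1% or 0.001 FPKM, and served for levels between genes and for the limma alternatives. Coordinates of the 10 genes matched GENCODE M21 on GRCm38.

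The tests were run in edgeR 4.0.16 (R 4.3.3) by the quasi-likelihood method, two-sided, on the means of the 4 groups in a joint model of the 12 libraries, after filterByExpr at a minimum count of 10 and TMM scaling, with Benjamini-Hochberg adjustment over all 16904 genes within each comparison. The standard error is the size of the log2 fold change divided by the square root of F. A prior count of 2 was added for log2 CPM but not for CPM. Total counts were 14346478 to 17749716 per library, and values of low genes such as *Lgr5* (7 to 117 reads) are limited by counting. Correlations used 100000 permutations. The script for gene-wise tests was tested on simulated data. Alternatives were DESeq2 1.42.0, limma 3.58.1 on log2(FPKM + 1) and log2(FPKM + 0.1), RLE and upper-quartile scaling, no filter beyond any count, fits of the compared groups alone, a replicate block, covariates for *Hoxb13* and for epithelial markers, model 1 and model 2 as 1 library, and each library left out. Those without libraries of *Hoxb13* under 5 CPM were added later. Between model and control, the deviations of libraries with the same number correlated at 0.21, 0.104 and 0.363, so these numbers were taken as pairs, from the data and not from the labels, and the block changed no call there.

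The 10 genes and all lists were chosen with earlier results of these data known. Lists were written from general knowledge. Genes named beside the 10 are up to 3 per list and comparison with the smallest unadjusted p under 0.05, the 3 genes most like *Lgr5* and the 3 most like *Axin2*, and markers. The DXM group is in the labels and not in the RNA-Seq methods of the study. No column belonged to a sample outside the sample list.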

Additional observations from a re-analysis of the deposited data

How the results depend on the processing

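None of the 9 tested genes of the report had an adjusted p under 0.05 under any alternative. Over all genes, edgeR's count of 0 at an adjusted p under 0.05 became 74, 7 and 54 with DESeq2, in the order of the report. It became 1 with genes of any count and 1 with only the groups compared in model against control, 2 with only the groups compared and 2 without the libraries low in *Hoxb13* in DXM against model, and 2 and 2 with limma on log2(FPKM + 0.1) in Rhy and in DXM against model. The count of these 9 genes at an unadjusted p under 0.05, 0 with all libraries, was 3 in model against control and 2 in Rhy against model without the libraries low in *Hoxb13*, and 1 and 2 with model 1 and model 2 also summed, where the model group is 1 library assumed to vary like those of the other groups. The epithelial covariate gave 1 in Rhy against model (*Myc*) and 1 in DXM against model (*Sox9*), with medians of 0.64 and -0.49, and only the groups compared gave 1 in DXM against model (*Rnf43*). For these settings, and for the replicate block, the share of all genes at that threshold is not given here. These counts therefore cannot be read as particular to the 9 genes. The replicate block gave 1 in Rhy against model (*Myc*, by 0.62) and turned *Sox9* there to -0.072. The library numbers did not pair the samples in that comparison (correlations -0.231, 0.142 and -0.198) or in DXM against model (-0.0146, -0.0892 and -0.139), and the block changed no other call.

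Leaving out 1 library at a time gave 0 to 1 genes at an adjusted p under 0.05 in model against control and in Rhy against model, 0 to 3 of the 9 genes at an unadjusted p under 0.05 in model against control (3 without control 3: *Lrig1*, *Axin2* and *Sox9*), and medians of -0.13 to 0.80 in model against control and -0.062 to 0.66 in Rhy against model. The share of all genes at an unadjusted p under 0.05 is not given here for these fits either. Directions turned for single genes. In model against control the ranges were -0.24 to 0.77 for *Ascl2*, -0.14 to 0.81 for *Axin2*, -0.16 to 0.80 for *Lgr5*, -0.13 to 0.71 for *Myc* and -0.40 to 0.44 for *Rnf43*. In Rhy against model they were -0.030 to 0.69 for *Lgr5*, -0.55 to 0.68 for *Smoc2* and -0.072 to 0.27 for *Sox9*. In DXM against model they were -0.15 to 0.32 for *Ascl2*, -0.59 to 0.38 for *Sox9*, -0.18 to 0.43 for *Znrf3* and -0.014 to 0.42 for *Smoc2*. Other reversals in model against control were *Rnf43* (0.17 with the *Hoxb13* covariate, 0.38 without the libraries low in *Hoxb13*, 0.39 with model 1 and 2 also summed, 0.052 and 0.017 with limma at pseudocounts 0.1 and 1), *Smoc2* (-0.022 with the *Hoxb13* and -0.12 with the epithelial covariate), and with the epithelial covariate *Lgr5* (-0.053), *Sox9* (-0.25) and *Znrf3* (-0.016). In Rhy against model the epithelial covariate turned *Lrig1* (0.20) and *Znrf3* (0.20). In DXM against model it turned *Ascl2* (-0.38), *Lrig1* (-0.29), *Myc* (-0.48), *Smoc2* (-0.20) and *Znrf3* (-0.73). There *Smoc2* was also -0.015 without the libraries low in *Hoxb13* and -0.017 with model 1 and 2 also summed, *Ascl2* was -0.087 with model 1 and 2 summed, and *Sox9* was 0.014 with the *Hoxb13* covariate, 0.075 with model 1 and 2 summed and 0.064 with upper-quartile scaling. The cause of these changes was not tested. With 3 libraries a group the intervals are wide: that of *Lrig1*, the narrowest in model against control, ran from -0.23 to 1.28.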

Other observations

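*Olfm4*, a stem cell marker of the small intestine that the mouse colon barely expresses, was chosen here after its values were seen. It had 283 reads in Rhy 3, 9, 5 and 1 reads in DXM 1 to 3, 2 reads in control 2, and 0 reads in the other 7 libraries. *Lgr5* (4.13 CPM) and *Ascl2* (8.03 CPM) in Rhy 3 lay within the range of the other libraries, while *Myc* (53.3 CPM) was the highest of the 12. The leukocyte marker sum, from 8 genes, was 12.1 CPM in Rhy 1 and 51.4 to 191 CPM in the other libraries.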
